A study of Homo sapiens with 3 samples.

Results

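The genes described here are 7 large genes for proteins of the cytoskeleton and its motors: DYNC1H1, FLNA, MYH9, ACTN4, SPTAN1, PLEC and MACF1. They were taken by name, and their peaks are those of the deposited list whose centre lies in the gene span given by NCBI RefSeq for GRCh38.p14, which shares its coordinates with the authors' hg38. The rule gave 116 peaks of the 21031 in the list, and of the 19269 with a centre in a coding gene. The genes were chosen by the number and depth of their peaks in this same list, so every value from it is given as a description with no test.

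The list comes from eCLIP, in which UV light links RNA to the proteins that touch it, an antibody pulls 1 protein down, and the attached RNA fragments are sequenced. LS174T cells, a human colon adenocarcinoma line, were transfected for 24 h with HA-tagged mouse Pxr, the gene of the pregnane X receptor, a nuclear receptor that senses drugs and bile acids. All 3 libraries came from such cells, irradiated at 254 nm with 400 mJ/cm2: 1 input and 2 replicates of the immunoprecipitate, whose antibody (against PXR or HA) is not given per library in the sources used here. The transfection adds a mouse receptor to human cells that have their own, and no cells without it were analysed here. The 1 peak list of the immunoprecipitate was analysed, with no values of single libraries, so no number below has a spread between replicates.

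Actin filaments and microtubules give an epithelial cell its shape, and motor proteins move cargo and generate tension along them. Dynein carries cargo toward the minus ends of microtubules, and nonmuscle myosin II pulls on actin filaments. Filamins, alpha-actinins and spectrins crosslink actin into networks, bundles and a lattice under the membrane, and the plakins, to which plectin and MACF1 belong, tie the filament systems to each other. In the colon epithelium these proteins support the apical junctions and the brush border.

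Each peak has a fold, the authors' ratio of the summit's reads to background reads after 1 is added to both. The reads under the summit, in a window of 200 bases, and the background reads were recovered from the fold and the deposited −log10 p, and a whole number of reads met the deposited p in all 116 peaks. In all 116 the background equalled a whole number of reads in the surrounding 10 kb, and that number was at least the reads of the summit. A fold therefore compares a summit with its own neighbourhood of 10 kb. A window of 200 bases in an evenly covered stretch of 10 kb would hold 2% of its reads. The intervals given with reads are exact Poisson intervals at 95% and describe counting error alone. The sources used here do not say whether PCR copies were removed. The amount of an RNA in the cells and its binding cannot be told apart here, because no expression values and no values of the input library were used.

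Of 10 colon epithelial marker genes 9 had a peak, all but KRT20, with summits of up to 1147 reads in KRT8. Of 10 fibroblast and muscle markers 3 had one (COL1A2, ACTA2 and TAGLN), and none of their summits exceeded 21 reads. The ACTA2 peak lay on the strand opposite to its gene, and the gene strands of COL1A2 and TAGLN were not used here. None of 10 blood and endothelial markers had one. Among all 20037 coding genes on chromosomes 1 to 22, X and Y, 8329 (41.6%) had a peak.

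For 3 of the genes the peak nearest the gene start reached into the bases that RefSeq lists just after that start. These are shown because the start peaks carry the highest folds in several genes, as described further on. The lines give bases 21 to 50 of the gene, counted from 1 at its first base, 5′ to 3′ on the gene's strand, from RefSeq's promoter table of GRCh38.p14. Capitals mark the bases under the peak. They lie at chr9:128552607-128552636 on the plus strand (SPTAN1), chr22:36387918-36387947 on the minus strand (MYH9) and chr14:101964593-101964622 on the plus strand (DYNC1H1).
SPTAN1: GAACGGTGTGGAGCGGAGGCCGCGGAGGCT
MYH9: GGCAGGGCACGGAAGGCTAAGCAAGGCTGA
DYNC1H1: acggtccggcttccggcggccgtttCTGTC
The SPTAN1 peak began at base 14 of the gene, the MYH9 peak at base 15 and the DYNC1H1 peak at base 46. The ACTN4 peak began at base 53, just beyond the window. G and C made up 73.3% of the window in SPTAN1, 63.3% in MYH9 and 70.0% in DYNC1H1, beside a median of 66.7% (quartiles 56.7 and 73.3%) over 15843 coding genes with a sequence in the table. The GC content of these 3 starts was therefore near that of coding genes at large.

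The 7 genes held 8 to 25 peaks each, and all peaks of a gene lay on 1 strand. DYNC1H1 had 25 peaks, MYH9 24, MACF1 20, SPTAN1 19, PLEC 11, ACTN4 9 and FLNA 8. Of all coding genes 117 (0.584%) had 10 or more peaks, and 5 of the 7 genes were among them. Their peak numbers had a part in their choice, so nothing is read from this. Of all coding genes 233 (1.16%) had 8 or more, as all 7 did. For 6 of the genes the gene strand was known, and 105 of 105 peaks lay on it. Among 185 coding genes with 8 or more peaks and a known strand, 83.8% likewise had every peak on their own strand, so this is the usual state of such genes. The gene strand of PLEC was not used here, and its 11 peaks were all on the minus strand.

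**Figure D1:**
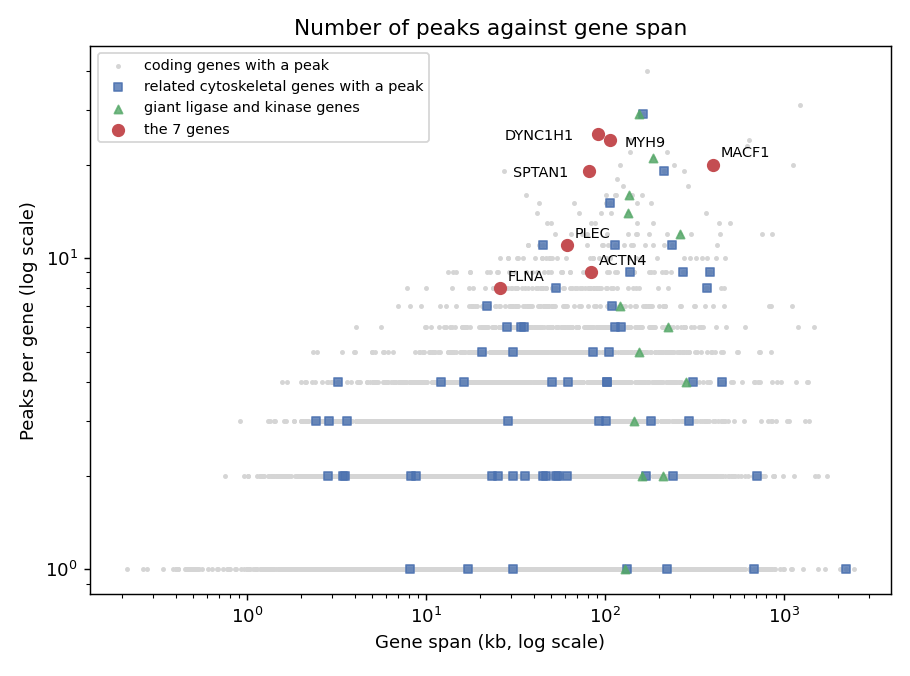
Number of peaks per gene against gene span in kb, both on log scales, for coding genes with a peak (grey), related cytoskeletal genes (squares), giant ubiquitin ligase and PI3K-like kinase genes (triangles) and the 7 genes (circles). The 7 genes hold 8 to 25 peaks at spans of 26.1 to 403.0 kb, toward the upper edge of the cloud.

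Per 10 kb of gene span, FLNA was the densest of the 7 with 3.06 peaks, and MACF1 the sparsest with 0.496. DYNC1H1 had 2.72, SPTAN1 2.34, MYH9 2.25, PLEC 1.79 and ACTN4 1.07 peaks per 10 kb. The 233 coding genes with 8 or more peaks had a median of 1.18, and 5 of the 7 genes lay above it. Spans include introns, so these densities depend on how much of each gene is intron, and exons were not used here.

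Summits were deeper in 6 of the 7 genes than in coding genes at large, by the median of each gene, and MACF1 was the exception. The 116 summits had a median of 62 reads, with a range of 13 to 300, against a median of 22 over all peaks in coding genes. The reads in the surrounding 10 kb had a median of 534.5 against 127. The median fold was 5.97 (quartiles 4.42 and 6.94) against 5.93 (4.77 and 7.65) in coding genes. A fold of 10 or more occurred in 8 of the 116 peaks (6.90%), beside 11.6% of all peaks in coding genes. Over 200 reads lay under 7 summits (6.03%), beside 0.903%. Of these summits 4 were in PLEC, 2 in ACTN4 and 1 in MYH9, and the other genes had none. The pooled medians were 2.82 times as high at the summit and 4.21 times as high around it. The summit held a median of 13.2% of the reads in its 10 kb, below the 17.1% of peaks in coding genes. MACF1 went against the pooled medians, with medians of 19 reads at the summit and 119.5 in 10 kb.

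**Figure D2:**
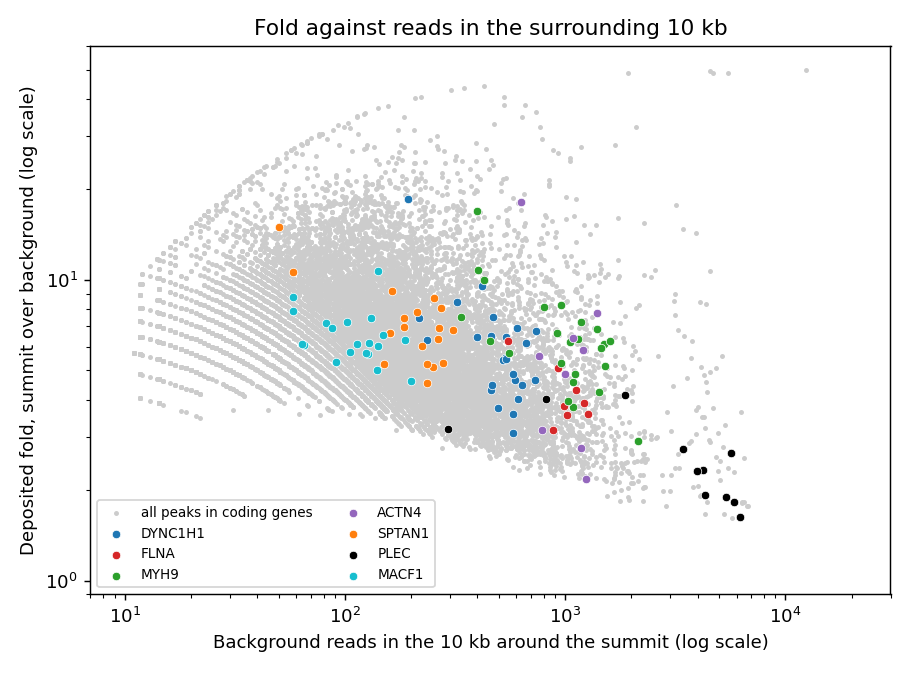
Deposited fold of each peak against the background reads in the 10 kb around its summit, both on log scales, for all peaks in coding genes (grey) and for the 7 genes (colours). PLEC peaks sit at the lower right, with up to 6194 reads in 10 kb and folds from 1.63, and MACF1 and SPTAN1 peaks toward the left, with at most 310 reads in 10 kb.

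By the median of their summits the genes formed an order from PLEC to MACF1. PLEC had a median of 190 reads per summit (range 21 to 300), MYH9 127.5 (57 to 205), ACTN4 101 (52 to 245) and FLNA 86 (58 to 100). DYNC1H1 followed with 61 (35 to 106), SPTAN1 with 32 (20 to 52) and MACF1 with 19 (13 to 40). The ranges of neighbours in this order overlapped throughout. The ranges of PLEC and MACF1, at its ends, overlapped too. Some pairs did not overlap, as all 8 FLNA summits were deeper than all 19 of SPTAN1 and all 20 of MACF1. The median fold followed another order, with SPTAN1 highest at 6.81, then MYH9 at 6.24, MACF1 at 6.14, ACTN4 at 5.56, DYNC1H1 at 5.50, FLNA at 3.86 and PLEC lowest at 2.34.

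DYNC1H1 codes for the heavy chain of cytoplasmic dynein, the subunit that walks along the microtubule. The gene lies on chromosome 14 from 101964573 to 102056443 on the plus strand, and 5 peaks stood in its first 40% and 20 in the rest. Its deepest peak, from 102011924 to 102012204, had 106 reads (86.8 to 128) under its summit and a fold of 6.78. The next, at 102016815 to 102017341, held 90 reads (72.4 to 111). These intervals overlap, so no single summit stood apart. The middle of the gene, with its peaks between 102005090 and 102018726, held 10 peaks and 45.0% of the summit reads.

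The start of DYNC1H1 stood apart by fold. Its first peak, at 101964618 to 101965102, had a fold of 18.5 from 89 reads (71.5 to 110), the highest fold among all 116. It held 46.1% of the 193 reads in its 10 kb, whereas the other 24 peaks had a median fold of 5.47 with a median of 534.5 reads in 10 kb. The lowest fold, 3.10, came from 38 reads at 102039496 to 102039832. The last 4 peaks were crowded between 102049458 and 102050885, and the last of them ended 5558 bases before the end of the span with 45 reads at a fold of 4.47.

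MYH9 codes for the heavy chain of nonmuscle myosin IIA, the motor of stress fibres and of the contractile belt at epithelial junctions. The gene lies on chromosome 22 from 36281280 to 36387967 on the minus strand, so it is read toward lower coordinates. Peaks thickened along it: 3 lay in its first 60% and 21 in the rest, 14 of them in the last 20% of the span, which held 66.5% of the summit reads. Its last peak, from 36281252 to 36282749, was the deepest with 205 reads (178 to 235) at a fold of 6.26, and with 1498 bases the widest of all 116. It crossed the annotated end of the gene by 28 bases.

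The highest fold in MYH9 did not lie at its start. It was 16.9, from 151 reads (128 to 177) at 36348780 to 36349240, centred 38958 bases into the gene. That peak held 37.8% of the 400 reads in its 10 kb. The start peak, at 36387651 to 36387953, had a fold of 10.0 from 95 reads (76.9 to 116). Between those peaks lay 38410 bases with no peak, 36.0% of the gene. Toward the other end the reads in 10 kb rose to 2149 around 36285552 to 36285916, where a summit of 127 reads gave the gene's lowest fold, 2.91.

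FLNA codes for filamin A, a dimer that crosslinks actin filaments into networks and anchors membrane proteins to them. It is the shortest of the 7 genes, on chromosome X from 154348531 to 154374634 on the minus strand. Its 8 summits held 58, 74, 75, 78, 94, 98, 99 and 100 reads. The Poisson interval of the lowest (44.0 to 75.0) did not overlap that of the deepest (81.4 to 122), and the intervals of the other 6 overlapped the deepest. Folds were low and close together, from 3.17 to 6.24. The highest fold lay in the first peak along the gene, at 154370834 to 154371221, with 551 reads in its 10 kb against 881 to 1273 around the others. That peak began 3414 bases into the gene, and no peak lay in the first kb. At the other end the peak at 154348471 to 154348977, with 99 reads, crossed the end of the span by 60 bases.

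ACTN4 codes for alpha-actinin-4, which bundles actin filaments at junctions and in moving cell edges. It lies on chromosome 19 from 38647649 to 38731589 on the plus strand. Its peaks fell into a start peak and a distal group with nothing between them. The start peak, from 38647701 to 38648051, had 245 reads (215 to 278) and a fold of 18.1, both the highest of the gene. It made up 21.8% of the summit reads. The next peak was 52561 bases away, so 62.6% of the span held no peak. The 8 other peaks had a median fold of 5.21 and a median of 95 reads.

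The last peak of ACTN4, at 38729294 to 38730190, was nearly as deep as the first, with 224 reads (196 to 255), but had a fold of 7.77 because its 10 kb held 1398 reads and not 630. The lowest fold was 2.17, from 55 reads among 1241 at 38712278 to 38712477. The centres of 5 of the 9 peaks also lay in the lncRNA gene LOC107985291, whose span is inside that of ACTN4. With these left out, 4 peaks remained, with a median of 156.5 reads against 101. The strand of that lncRNA gene was not used here, so reads of the 5 peaks cannot be assigned to 1 of the 2 genes.

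SPTAN1 codes for alpha-II spectrin, the nonerythroid alpha chain of the lattice under the plasma membrane. It lies on chromosome 9 from 128552587 to 128633662 on the plus strand, and its 19 peaks were shallow and spread along the gene. Summits held 20 to 52 reads, and the interval of the lowest (12.2 to 30.9) and the deepest (38.8 to 68.2) did not overlap. The start peak, at 128552600 to 128552848, had the highest fold, 15.0, although its 29 reads (19.4 to 41.6) ranked only 13 in the gene. It held 58.0% of the 50 reads in its 10 kb. The other 18 peaks had a median of 33 reads, with a median of 230 in 10 kb. Start and rest therefore differed in the reads around the summit and not in those under it.

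The distal end of SPTAN1 met a peak of the other strand. Its deepest and last peak, from 128633255 to 128633686, had 52 reads and a fold of 8.72 and crossed the end of the span by 24 bases. A minus-strand peak at 128633540 to 128633862 overlapped it in position, with 35 reads at a fold of 5.19. Its centre lay 39 bases outside SPTAN1, in DYNC2I2, a dynein gene of cilia. It is the only peak that any overlap, in place of the centre, would add to the 116, and it would be the only one not on the strand of the gene's other peaks.

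PLEC codes for plectin, the plakin that links keratin filaments to actin, to junctions and to the basal surface. The gene lies on chromosome 8 from 143915153 to 143976745 and was read from its higher coordinate, the direction of its minus-strand peaks. It had the deepest surroundings and the lowest folds of the 7. Reads in 10 kb ran from 295 to 6194, with a median of 4206, and only 3 of all coding genes had a peak with more than its highest. The median fold of 2.34 ranked 5 from the lowest among 8329 coding genes with a peak and 2 from the lowest among the 233 with 8 or more peaks.

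Depth in PLEC rose over the first summits and stayed high after them. From the higher end, the first 4 held 21, 69, 157 and 198 reads. The next 4, between 143922789 and 143925703, held 203, 300, 215 and 202, and the last 3, between 143915143 and 143916969, held 167, 185 and 190. The deepest of all 116 summits was the one of 300 reads (267 to 336) at 143923948 to 143924888, 941 bases wide. It held 5.32% of the 5634 reads in its 10 kb, and its fold was 2.65. The lowest fold of all 116, 1.63, came from 202 reads among 6194 at 143922789 to 143923031, which is 3.26% of them. A low fold thus went with a deep summit, since of all peaks in coding genes 0.903% held over 200 reads.

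MACF1 codes for the microtubule-actin crosslinking factor, a giant plakin with spectrin repeats. It spans 402972 bases of chromosome 1, from 39084167 to 39487138 on the plus strand, and had the shallowest peaks of the 7. Its first peak, at 39105438 to 39105904, was also its deepest and its highest by fold, with 40 reads (28.6 to 54.5) at a fold of 10.7. It lay 21272 bases into the annotated gene. No peak followed for 181516 bases, 45.0% of the gene, and the other 19 lay in the distal part from 39287421 on.

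Those 19 MACF1 summits held 13 to 29 reads, and the intervals of the shallowest (6.92 to 22.2) and the deepest (19.4 to 41.6) of them overlapped. Their order by depth is therefore not resolved. Folds ran from 4.62 to 8.80. The reads in 10 kb ran from 58, around the peaks that begin at 39302981 and 39310288, to 199 at 39385529 to 39385889. The last peak, from 39485591 to 39485941, had 19 reads and a fold of 6.10 and ended 1197 bases before the end of the gene. Of the 7 genes MACF1 lost the most peaks at q cutoffs stricter than the list's own. Of its 20 peaks, 11 had a −log10 q at or above the median of the list, 9.16, and 8 had one of 10 or more.

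**Figure D3:**
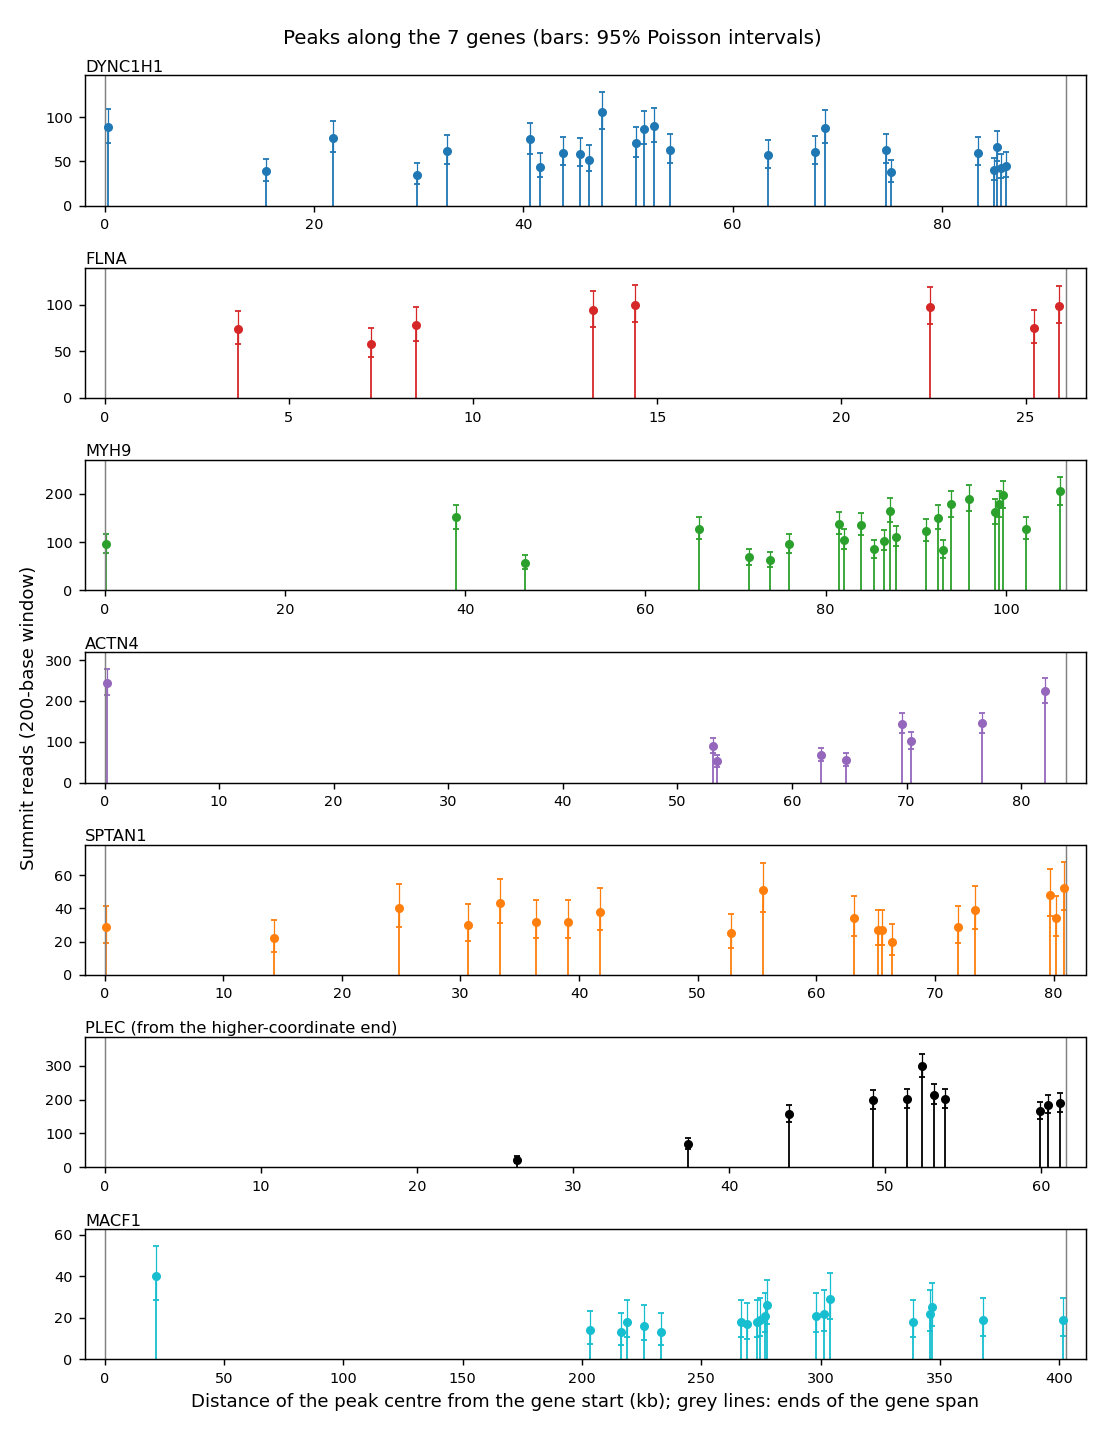
Reads under each summit, as a point on a stem with its 95% Poisson interval as a bar, against the distance of the peak centre from the gene start in kb, 1 panel per gene. Grey lines mark the ends of the gene span. ACTN4 and MACF1 show a first peak followed by long stretches without peaks (52561 and 181516 bases), and MYH9, ACTN4 and PLEC hold most of their summit reads in the last 20% of the span.

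Summit reads leaned toward the distal end in most of the 7 genes. The last 20% of the span held 76.7% of them in PLEC, 66.5% in MYH9, 54.7% in ACTN4, 42.3% in SPTAN1 and 40.2% in FLNA. In MACF1 it held 25.2% and in DYNC1H1 22.6%. Among the 185 coding genes with 8 or more peaks and a known strand, the median was 34.3% (quartiles 23.5 and 48.8%). MYH9 and ACTN4 lay above those quartiles, as did PLEC read from its higher coordinate, and DYNC1H1 below them. A peak centre in the last kb occurred in MYH9, FLNA and SPTAN1, 3 of the 6 genes of known strand, beside 53% of those 185 genes.

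A peak in the first kb stood in 4 of the 6 genes of known strand, DYNC1H1, MYH9, ACTN4 and SPTAN1, beside 71.4% of the 185 genes. In 3 of the 6 it had the highest fold of the gene, beside 37.3%. In all 4 its fold was above the median of the gene's other peaks, beside 84.1% of the 132 genes with such a peak. These shares are near those of other genes with many peaks, so start peaks of high fold are not a feature of the 7. The reads in 10 kb were fewer at the start than around the other peaks in all 4: 193 against a median of 534.5 in DYNC1H1, 429 against 1084 in MYH9, 630 against 1131.5 in ACTN4, and 50 against 230 in SPTAN1. These start peaks began at bases 14 to 53 of their genes, so the 10 kb around them reached before the gene start. The part of this in their folds was not tested. The reads under the start summit were above the median of the other summits in DYNC1H1 (89 against 60.5) and ACTN4 (245 against 95), and below it in MYH9 (95 against 128) and SPTAN1 (29 against 33).

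**Figure D4:**
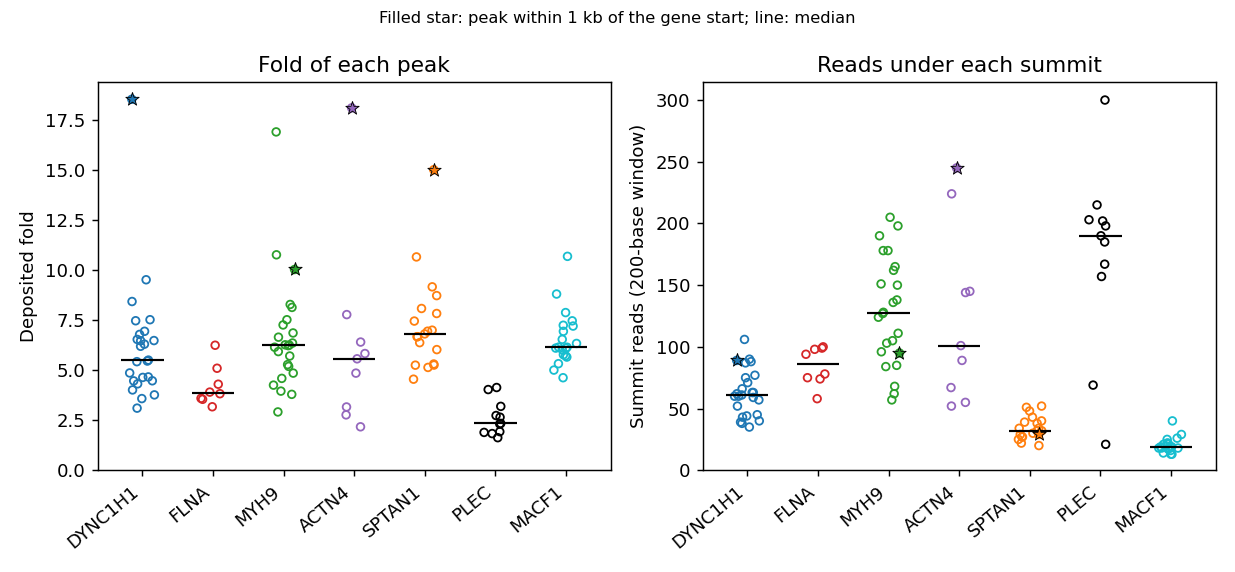
Deposited fold (left) and summit reads (right) of each peak in the 7 genes, with the median as a line and the peak within 1 kb of the gene start as a star. The stars stand at folds of 10.0 to 18.5, above the medians of their genes, while by reads those of MYH9 and SPTAN1 lie below them.

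Peaks were narrow and seldom touched each other. Their median width was 257 bases, against 268 in coding genes, and 15 of the 116 (12.9%) were at most 202 bases wide, close to the narrowest peak of the list at 200, beside 17.5% of peaks in coding genes. The median distance between neighbouring peaks was 1404 bases in DYNC1H1, 1768 in MYH9, 2465 in SPTAN1 and 6758 in MACF1. In PLEC it was 1036 bases. Neighbours closer than 100 bases occurred once in DYNC1H1 and once in PLEC. Peaks covered 10.9% of the span of FLNA, 8.98% of DYNC1H1, 8.04% of PLEC, 7.76% of MYH9, 6.62% of SPTAN1, 3.67% of ACTN4 and 1.39% of MACF1.

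The spans set the borders of these sets clearly for most genes. The nearest peak outside on the strand of the gene's own peaks was 37295 bases away for FLNA, in DNASE1L1 and TAFAZZIN, and 53745 bases away for MYH9, in APOL2. For PLEC it was 844 bases away, in PARP10, where the summit held 89 reads and the fold was 11.5. For the other 4 genes the distance was 12593 to 49590 bases.

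Close relatives of the 7 genes differed widely in the list. The muscle filamin FLNC held no peak. Of the nonmuscle myosin II heavy chains, MYH14 held 15 peaks with a median of 26 reads, and MYH10 none. ACTN1, for the other nonmuscle alpha-actinin, held 5 with a median of 37 reads, and the muscle genes ACTN2 and ACTN3 held none. Expression was not used here, so nothing about binding is drawn from genes without a peak.

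Among the spectrins SPTBN1, for the beta-II chain that pairs with alpha-II spectrin, held 19 peaks, as many as SPTAN1. Its summits were deeper, with a median of 137 reads against 32 and up to 2156 reads in 10 kb against 310. SPTB held 1 peak, which lay on the strand opposite to the gene, and SPTBN4 and SPTBN5 held none. Among the plakins the desmosomal DSP held 11 peaks, EPPK1 7, EVPL 5 and PPL 2. DST, the closest relative of MACF1, held none in a span of 496835 bases. EPPK1, for epiplakin, resembled PLEC in its low median fold of 2.48 with up to 1815 reads in 10 kb.

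The partners of the dynein heavy chain had fewer and shallower peaks than DYNC1H1. Of 24 genes for dynein, dynactin and their regulators 15 had a peak (62.5%), beside 41.6% of coding genes, and none had more than 5. The gene medians ran from 9.5 to 36.5 reads per summit, below the 61 of DYNC1H1. Their median was 17 reads, near the 18 over coding genes with a peak, so their depth was ordinary for the list. DYNC1LI2, a light intermediate chain, had the 5, with a median of 20 reads. The dynactin gene DCTN1 had 2, the light chain gene DYNLL1 3, and the intermediate chain genes DYNC1I1 and DYNC1I2 none. Of the myosin II light chain genes examined, MYL6 held 4 peaks, MYL12B 4 and MYL12A 2, and MYL9 held none.

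In the whole list of 99 related cytoskeletal genes 63 had a peak (63.6%), beside 41.6% of coding genes, and 22 had 5 or more, beside 4.53%. The median gene of the list held 2 peaks, and of the 63 the median summit reads had a median of 23.5, against 18 over coding genes with a peak and 86 over the 7 genes. Among the 22 were IQGAP1 and MAP4 (11 each), MYO1D, MYO9B and MYO10 (9 each), EZR and MYO5B (8 each), MYO18A (7), MYO1C, TLN1, VCL, VIL1 and AHNAK (6 each) and CORO1C (5). EZR (ezrin) and VIL1 (villin) build microvilli, TLN1 (talin) and VCL (vinculin) join integrins to actin, and the MYO genes code for unconventional myosins. Own-strand peaks were 237 of 242 in the related genes of known strand.

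The deepest summits of the related list lay in short genes. ACTB, for beta-actin, reached 986 reads, ACTG1, for gamma-actin, 578, PFN1, for the actin monomer-binding profilin, 436, and CFL1, for the filament-severing cofilin, 385. SPTBN1 came next with 250. The actin genes are near-identical to each other and to processed pseudogenes, so their reads are uncertain. Each of the first 4 held 2 or 3 peaks.

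Giant genes of other families are set beside the 7, though none of the 7 lies within their range of spans. Of 7 giant ubiquitin ligase genes, with spans of 135757 to 282438 bases, all had peaks, 71 in total. Their median was 6 peaks, at 0.266 per 10 kb, with gene medians of 10.5 to 35 reads. HUWE1 led them with 29 peaks, a median of 35 reads and a median fold of 6.06. Of 6 giant PI3K-like kinase genes all had peaks, 51 in total, with a median of 6, at 0.448 per 10 kb, and gene medians of 9 to 29 reads, led by PRKDC with 21. A single summit of 470 reads in TRRAP was deeper than any in the 7 genes. MACF1, with 0.496 peaks per 10 kb and a median of 19 reads, lay within the ranges of both families, and SPTAN1, with a median of 32 reads, within that of the ligases. FLNA, DYNC1H1, MYH9, ACTN4 and PLEC lay above both ranges in median reads. These sets were chosen with the list known, so the contrast was not tested.

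By the number of peaks per 10 kb, the coding genes with 10 or more peaks nearest to the median of the 7, 2.25, included LETM1 with 2.24, CANX with 2.26, GCN1 with 2.22 and CEMIP with 2.32. This likeness is in 1 measure over 1 peak list. In other measures they differed: the median fold was 7.61 in CANX, above that of SPTAN1, and 2.64 in CEMIP, near that of PLEC.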

How the data were processed

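The deposited file is 1 list of MACS2 peaks in narrowPeak layout. Per the submitters' processing notes, cutadapt, BWA and MACS2 were used with hg38; their versions and settings, and whether replicates were pooled, are not given in the sources used here. The deposited peak names show separate calls for each strand. The deposited fold is the authors' ratio at the summit, the deposited −log10 p and −log10 q are the caller's, and the deposited score is a multiple of the −log10 q. Summit reads and background were recovered from fold and −log10 p (Poisson; Python 3.11.15, scipy 1.17.1), a step tested on simulated data, where it returned 492 of 492 read counts. In 21028 of 21031 peaks a whole number of reads gave the −log10 p of the file (absolute tolerance 0.0001, relative tolerance 0.00001). Peaks were assigned by centre to 59792 RefSeq genes, and gene strand was taken from RefSeq's promoter table. The table gives spans, not exons.

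Members, gene lists and comparisons were chosen with earlier results of these data known. The naming rule took all 7 genes with their deepest, highest-fold, first and last peaks, related genes with 5 or more peaks, of a member's family or among the 5 deepest, and the 5 coding genes nearest in peaks per 10 kb. Some genes that this rule takes are not reported here. No test was run, since every value comes from the list that chose the genes. Alternatives were a stricter q, any overlap, whole peaks only, peaks in no other gene, merged neighbours and own-strand peaks.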

Additional observations from a re-analysis of the deposited data

How the results depend on the processing

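No paired analysis was possible because the 1 peak list carries no replicates. The 7 genes together held 116 peaks, and 94 to 117 under the alternatives: 101 with −log10 q at or above the median of the list, 94 with 10 or more, 117 with any overlap, 112 with whole peaks only, 111 in no other gene and 114 after merging neighbours closer than 100 bases. Own-strand peaks were 105 in the 6 genes of known strand. The median fold stayed between 5.92 and 6.24 and the median summit reads between 61 and 75. Related genes with a peak were 63, and 52 with −log10 q at or above the median. Of 174 values of single genes 5 moved: a count by over 1.5 times, or a median or share beyond its 95% interval over the gene's peaks. Most alternatives keep a part of the same peaks, and some leave a gene's peaks unchanged, so this count does not measure stability. ACTN4 fell to 4 peaks without those in a lncRNA gene, where its median rose from 101 to 156.5 reads, within its 95% interval. MACF1 fell to 11 and 8 peaks with a stricter q. Those 8 had a median fold of 7.35 and a median of 23 reads, against 6.14 and 19 over all its peaks. The q rests on the same reads, so a stricter q selects for these values. The density per exon length was not run, because exons were not used here. Depth limits the order of summits within MACF1, SPTAN1 and FLNA, whose intervals mostly overlap.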
